A study of Manihot esculenta with 8 samples.

Results

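Of 31901 gene IDs counted in cassava shoots, 96 had mean levels within 1.5-fold of each other in cold-treated and control shoots, and yet differed at least 3-fold among the libraries of each group. They were chosen on CPM, each count divided by the total of its library and multiplied by 1000000. A mean of at least 10 CPM in both groups was met by 14982 IDs (the expressed IDs), and 13113 of these (the steady IDs) had a cold mean between 0.667 and 1.5 times the control mean. The highest library was at least 3 times the lowest among the 4 cold libraries for 231 of the 13113 IDs and among the 4 control libraries for 371, and 96 met both. The ranges and the ratio of means are therefore the selection itself and are given as description. Which libraries were high or low, and which IDs moved together, was not part of it.

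Cassava (Manihot esculenta) is a tropical root crop that is sensitive to chilling. All shoots came from wild-type seedlings of the cultivar TM12 raised in chambers set to 20 °C in the light and 18 °C in the dark, at 60% humidity and with a day of 16 h and a night of 8 h. The 4 cold libraries came from seedlings moved after 2 weeks to a lit room at 4 °C and harvested 3 h later, and the 4 control libraries from untreated seedlings. Whole shoots were used, and the labels do not say whether a library holds 1 plant or a pool, whether replicates were separate plants, or when in the day the control shoots were taken. Fewer cells of a kind and less RNA per cell cannot be told apart in such material.

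Transcript levels in a leaf or stem follow the plant's age, the hour of the day, light, injury, microbes and the mix of cell types. In Arabidopsis, genes that differ between seedlings of one line grown side by side are known to include many that respond to the environment. Replicate libraries carry this variation, and a comparison of means is read against it. None of the 31901 IDs (0) could be paired with a symbol or description, so functions and marker genes are not given here and the identity of the tissue could not be checked against markers. The IDs are described by level, by library and by the chromosome and locus number that each carries.

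Depth ranged from 62798223 counts in cold replicate 3 to 100031792 in cold replicate 1. Counting error was small for nearly all of the variable IDs: the lowest count in any library was at least 100 for 92 of the 96, with a median of 527, and it was at most 20 for 2. Such limits cover counting error only. Libraries of the same group gave chi-square values of 67.3 to 271 for each degree of freedom, over IDs with at least 10 counts, so none was a repeat of another within sampling noise. The 1000 most abundant IDs took 36.4% and 38.1% of the counts in cold replicates 1 and 3 and 37.6% in control replicate 1, against 33.4% to 34.6% in the other 5 libraries. Without these 3 libraries, 13 IDs met the selection. A range over fewer libraries can only stay or shrink, and no other 3 libraries were left out, so the lower count does not tie the selection to these 3.

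The variable IDs had a median range of 5.09 among cold libraries and 4.56 among control libraries. Over all 13113 steady IDs the median ranges were 1.43 in cold and 1.35 in control. At the border of the selection, MANES_12G145500 had a cold range of 3.02 and MANES_18G018500, just outside, one of 2.99. For the control range the nearest IDs were MANES_10G072600 at 3.02 and MANES_16G129000 at 2.98. The ratio of cold to control means ran from 0.679 to 1.48 among the 96, with a median of 0.999. Another 52 IDs were as wide in both groups but fell outside the limits on that ratio, 29 with the higher mean in cold and 23 with the higher mean in control. The nearest of these had ratios of 1.51 and 0.664.

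**Figure D1:**
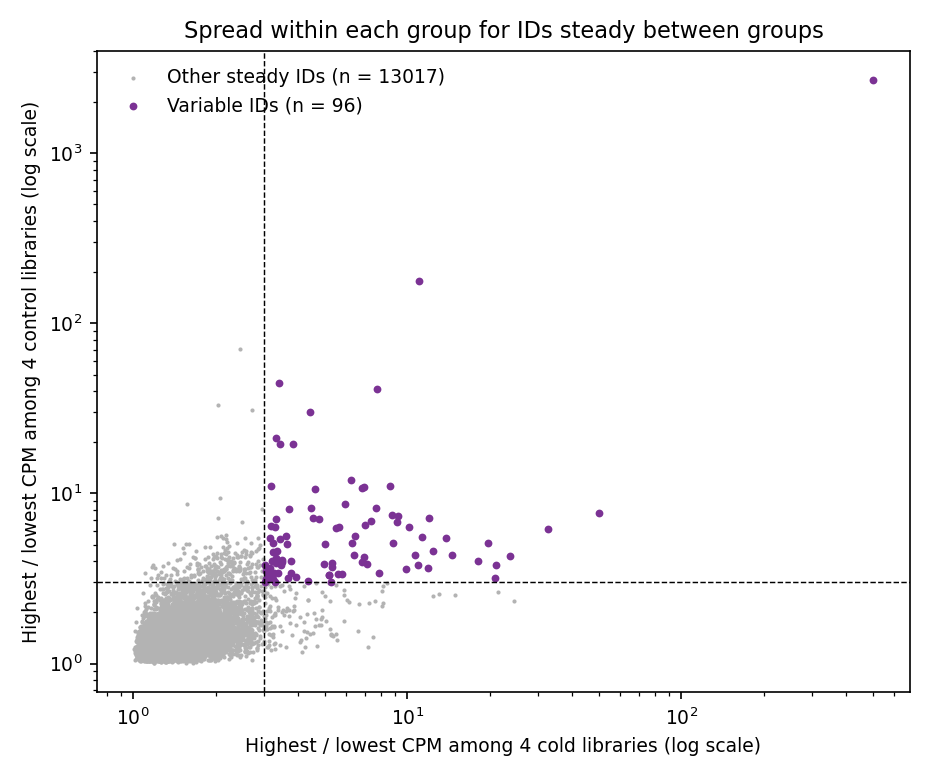
Highest over lowest CPM among the 4 cold libraries (horizontal, log scale) and among the 4 control libraries (vertical, log scale) for the 13113 IDs with similar group means. Purple points are the 96 IDs at or above 3 on both axes, marked by dashed lines, and the point at the upper right is MANES_05G139400.

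The counts behind the selection overlapped as follows, given as description since the same ranges chose the 96 IDs. Of the 371 IDs with a 3-fold range among control libraries, 96 (25.9%) also had one among cold libraries. Of the 12742 IDs without it, 135 (1.06%) did. Read the other way, 41.6% of the 231 IDs wide in cold were wide in control, against 2.13% of the 12882 that were not. The share of 25.9% was 12.3% without cold replicate 1 and 54.1% without control replicate 1. Control replicate 1 carried 47.2% of the squared log2 deviation of all steady IDs among the control libraries, and without it only 98 IDs were wide in control. The 275 IDs that were wide in control but missed the mark in cold had a median cold range of 2.09, and the 135 wide in cold alone a median control range of 1.92, both above the medians of all steady IDs.

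They were most frequent at low abundance but were also found at high abundance. In 4 classes of the steady IDs by mean CPM, from lowest to highest, 43, 27, 6 and 20 of the 96 were found, in classes of 3278 or 3279 IDs. Together they took 0.691% ± 0.184 of the counts in cold libraries and 0.716% ± 0.111 in control libraries (SD, n = 4 each). In edgeR's quasi-likelihood test of cold against control, 9.15% of 26517 tested IDs passed an adjusted p of 0.05. All 96 variable IDs were tested and 0 passed, with 0 at an unadjusted p below 0.05, and 0 in DESeq2 by either measure, where 93 had an adjusted p. The selection limits the ratio of means, so nothing is read from that count. The median standard error of their log2 fold change was 0.62, against 0.16 for all steady IDs tested, so a missed threshold does not show equal levels in cold and control.

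The widest ID was MANES_05G139400, on chromosome 5. It had 55.7, 1.29, 0.111 and 0.157 CPM in cold replicates 1 to 4, against 0.121, 0.0218, 4.59 and 58.8 CPM in control replicates 1 to 4. One library of each group, cold replicate 1 and control replicate 4, thus held nearly all of its counts, and the group means were close because each group had one such library. The counts behind these levels were 5576, 104, 7 and 14 in cold and 10, 2, 443 and 4949 in control libraries. The cold range of 500.1 had a 95% counting interval of 243 to 1244. Its control range of 2698 rests on 2 counts in the lowest library and had a counting interval of 746 to 22282.

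By the smaller of its ranges in cold and control, MANES_13G094200 on chromosome 13 came next. It had 29.9, 2.7, 13.8 and 5.43 CPM in cold replicates 1 to 4, against 0.146, 25.9, 2.87 and 11.5 CPM in control replicates 1 to 4. Cold replicate 1 and control replicate 2 were the high libraries, and control replicate 1 was close to 0 with 12 counts. After MANES_05G139400, the widest cold ranges were those of a pair of IDs picked once their values had been seen. MANES_02G082000 had 4.89, 5.14, 0.940 and 47.1 CPM in cold replicates 1 to 4, against 3.71, 3.16, 12.4 and 24.4 CPM in control replicates 1 to 4. MANES_11G128200 had 388, 32.6, 145.9 and 11.9 CPM in cold replicates 1 to 4, against 130.7, 42.2, 263 and 192 CPM in control replicates 1 to 4. The first was high in replicate 4 of both groups, and the second was lowest in cold replicate 4 and lowest in control replicate 2.

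The most abundant variable IDs shared a different pattern. MANES_15G086700, on chromosome 15, had 1234, 1107, 3293 and 380.2 CPM in cold replicates 1 to 4, against 2938, 1599, 264 and 977 CPM in control replicates 1 to 4. MANES_03G110500, on chromosome 3, had 509, 453, 1402 and 415 CPM in cold replicates 1 to 4, against 1621, 686, 474 and 677 CPM in control replicates 1 to 4. Both were highest in cold replicate 3 and control replicate 1 and lowest in cold replicate 4 and control replicate 3. The high pair of libraries is among the 3 with the large share in the 1000 most abundant IDs, and the part of that share in the pattern was not tested.

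**Figure D2:**
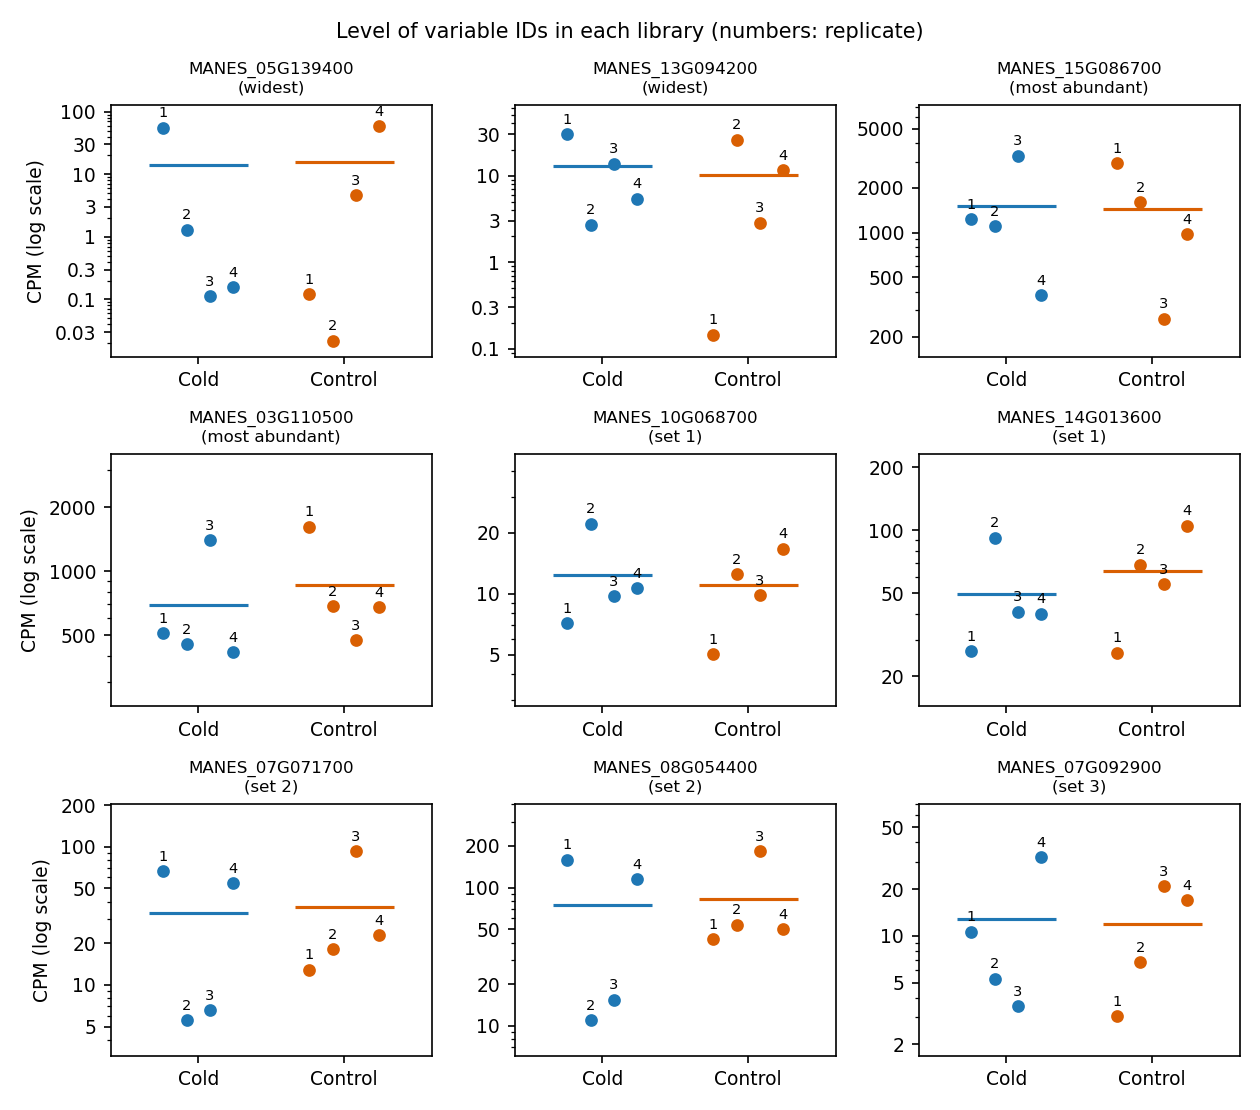
CPM (log scale) of 9 variable IDs in each cold (blue) and control (orange) library, with the replicate number at each point and the group mean as a bar. The points of each group span at least 3-fold while the bars lie close together.

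The top value lay in different libraries for different IDs. Among the cold libraries, replicate 1 held the top value for 37 of the 96 IDs, replicate 4 for 32, replicate 2 for 17 and replicate 3 for 10. Among the control libraries it was replicate 3 for 41, replicate 4 for 26, replicate 1 for 18 and replicate 2 for 11. Among control libraries the low end was more one-sided, with replicate 1 lowest for 49 of the 96 and the others for 8 to 22. Among cold libraries it was more even, with replicate 3 lowest for 31 IDs and the others for 19 to 25. Cold replicate 1 and control replicate 3 had the highest median deviations from the mean of their own group, 0.44 and 0.63 on the scale of log2(CPM + 0.5), and control replicate 1 the lowest, -0.82. Control replicate 1 held 40.9% of the squared deviation of the 96 IDs among control libraries, where the other 3 held 16.0% to 25.5%. Over all steady IDs its share was 47.2%, so the large share was not particular to the 96. Among cold libraries the shares ran from 19.9% to 30.8%. Cold replicate 4 held 29.0%, against 14.5% over all steady IDs, and cold replicate 3 held 20.2%, against 31.6%. The selection was met by 43 IDs without cold replicate 1, by 53 without control replicate 1 and by 58 without control replicate 3.

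In many cases 1 library stood alone. The highest library was at least 2-fold above the next for 44 IDs in cold and 33 in control. The lowest was at least 2-fold below the next for 26 IDs in cold and 37 in control. Where the largest gap on the log2 scale parted the 4 libraries, cold replicate 1 alone was high for 17 IDs, cold replicate 4 alone for 15, and both together for 14. Among control libraries, replicate 1 alone was low for 29 IDs, replicate 3 alone high for 21, and replicates 3 and 4 were high together for 15.

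Some combinations of high libraries held more IDs than others. The highest values lay in cold replicate 4 and control replicate 3 for 22 IDs, in cold replicate 1 and control replicate 3 for 18, and in cold replicate 2 and control replicate 4 for 13. The totals of each library alone, multiplied and divided by 96, would give 13.7, 15.8 and 4.6, so the count of 18 lay near that value. The other 13 of the 16 possible combinations held 0 to 7 IDs each. Of these, cold replicate 3 with control replicate 1 held 7, against 1.9 from the totals. Control replicate 3 with cold replicate 2 held 1, against 7.3, and with cold replicate 3 it held 0, against 4.3. The lowest values lay most often in cold replicate 3 and control replicate 1 (22 IDs) and in cold replicate 4 and control replicate 3 (14 IDs). So control replicate 3 could be high where cold replicate 4 was high, or low where it was low. Across the 96 IDs, deviations in cold replicate 4 and control replicate 3 had a Pearson r of 0.51, those in cold replicate 3 and control replicate 1 one of 0.48, and those in cold replicate 3 and control replicate 3 one of -0.60. The value was 0.24 for cold replicate 1 with control replicate 3 and 0.24 for cold replicate 2 with control replicate 4. Over all 14982 expressed IDs the same 5 values were 0.46, 0.34, -0.33, -0.04 and 0.40. These are descriptions across IDs, which share the 8 libraries.

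IDs that moved together in one group often did so in the other. Over the 4 control libraries, 484 of the 4560 pairs of variable IDs had r of at least 0.9 on the log2(CPM + 0.5) scale. Of these 484 pairs, 140 (28.9%) also reached 0.9 over the 4 cold libraries, which had no part in choosing them, and 77.3% had a positive r there, with a median of 0.75. Over all 4560 pairs, 10.4% reached 0.9 in cold. Pairs picked on cold libraries gave 29.5% at 0.9 in control, with 10.6% over all pairs. For pairs of all 14982 expressed IDs the corresponding shares were 11.4% against 7.04% in cold and 13.7% against 8.47% in control. An r over 4 libraries is imprecise, pairs share IDs, and IDs with larger spread have less noise in r, so the difference between the variable IDs and all expressed IDs was not tested. The share of 28.9% was 17.2% to 21.5% when pairs were picked without 1 of the control libraries, whichever it was. It was 35.1% to 40.5% when pairs were read without 1 of the cold libraries. An r of 0.9 is reached more easily over fewer libraries, so these shares do not single out a library.

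The 96 IDs were sorted by correlation of their deviations from the own-group mean over the 8 libraries, by average linkage with sets parted at r of 0.7. This gave 8 sets of at least 5 IDs with 77 IDs in all, 6 smaller sets with 17 IDs, and 2 IDs alone. The sets, numbered by size, were made on these libraries, so the tightness within a set is a description. The median r of pairs in a set was 0.85 (set 8) to 0.93 (set 3) in cold and 0.75 (set 2) to 0.98 (set 1) in control. Single pairs could be much looser within a group, with a lowest r of 0.35 in cold (set 1) and 0.20 in control (sets 2 and 3). The first 3 principal components of the deviations held 43.9%, 21.7% and 16.3% of the variance, so no single pattern covered the 96. On the first, control replicate 3 and cold replicates 4 and 1 lay at one end (0.43, 0.37 and 0.30), and control replicate 1 and cold replicate 3 at the other (-0.56 and -0.40).

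**Figure D3:**
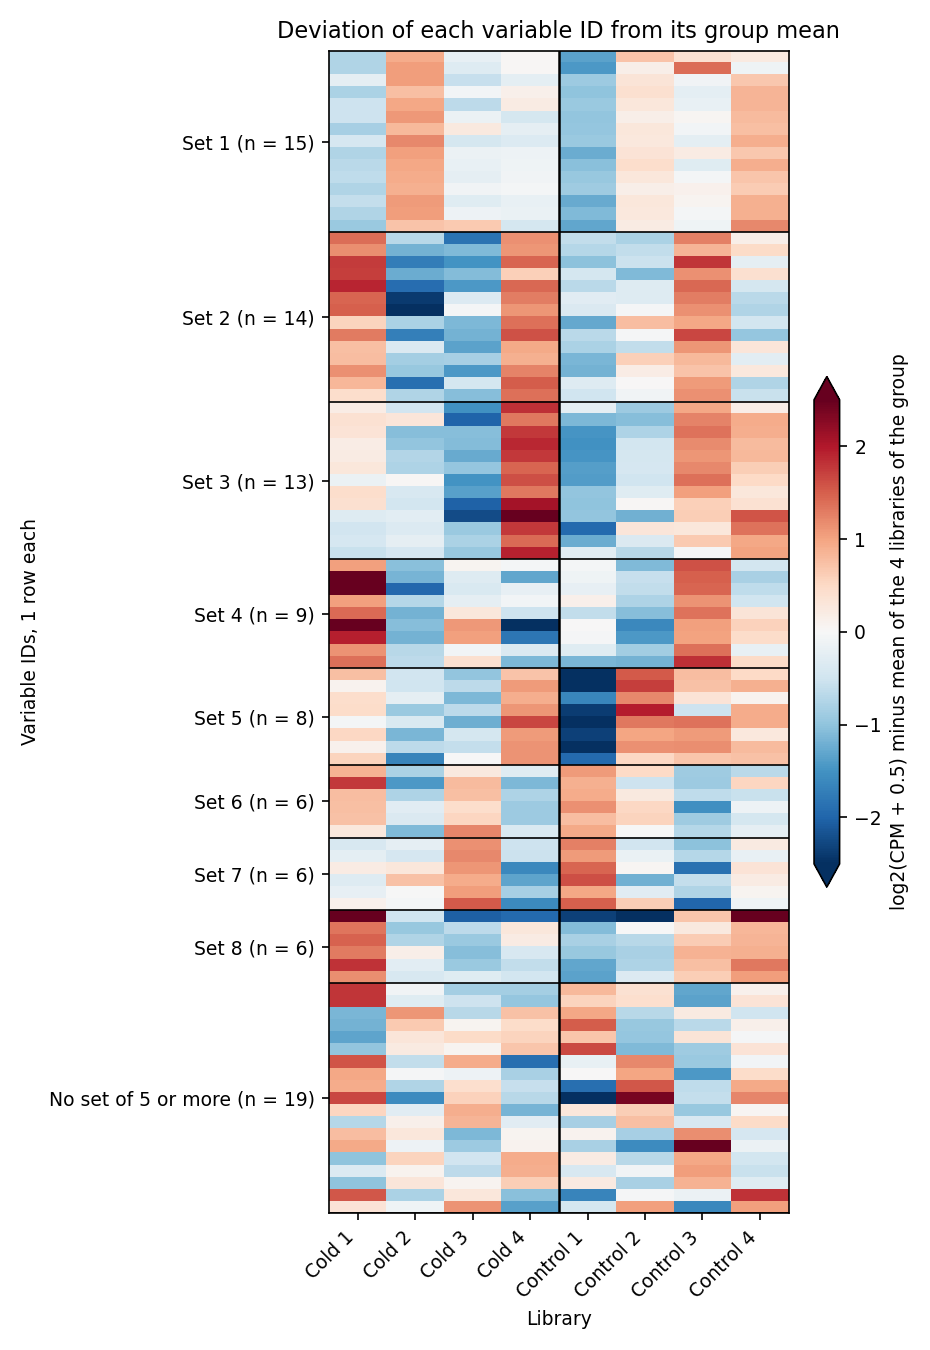
Deviation of log2(CPM + 0.5) from the mean of the own group for the 96 variable IDs (rows) in 4 cold and 4 control libraries (columns), ordered by set. Red is above and blue below the group mean, with colours ending at 2.5 in either direction. Sets differ in which libraries are high and low, and the 19 IDs in the lowest block belong to no set of 5 or more.

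Set 1 was the largest, with 15 IDs from 9 chromosomes. All 15 were highest in cold replicate 2 and lowest in control replicate 1, 13 were highest in control replicate 4, and 12 were lowest in cold replicate 1. The mean deviations were -0.66, 0.96, -0.17 and -0.13 in cold replicates 1 to 4 and -1.09, 0.31, 0.06 and 0.72 in control replicates 1 to 4. MANES_10G068700 had 7.14, 22.1, 9.68 and 10.6 CPM in cold replicates 1 to 4, against 5.01, 12.5, 9.80 and 16.6 CPM in control replicates 1 to 4. MANES_14G013600 had 26.4, 92.2, 40.9 and 39.8 CPM in cold replicates 1 to 4, against 26, 68.6, 55.1 and 105 CPM in control replicates 1 to 4. These 2 IDs had the highest mean r with the rest of the set, 0.938 and 0.937. Cold and control values overlapped throughout.

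Many IDs outside the 96 followed the profile of set 1 at a smaller amplitude. Of the 14886 expressed IDs outside the 96, 211 (1.42%) followed the mean of set 1 with r of at least 0.95 over the 8 libraries, and 24 mirrored it. The median ranges of the 211 were 1.87 in cold and 2.25 in control, and 49 of the 211 were steady IDs that were wide in at least one group. Followers outside the limits on the ratio of means were not counted as wide, whatever their range. For the other 7 sets the number of such followers ran from 3 to 32. The closest follower of set 1, MANES_02G216500, had r of 0.996 with it but moved little, with 15.5, 19.1, 16.2 and 16.6 CPM in cold replicates 1 to 4, against 15.0, 17.8, 17.4 and 18.7 CPM in control replicates 1 to 4. Its range was 1.23 in cold and 1.24 in control.

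Set 2 held 14 IDs from 7 chromosomes, 4 of them on chromosome 14. All 14 were highest in control replicate 3, and in cold 7 were highest in replicate 1 and 7 in replicate 4. Cold replicates 2 and 3 were low, with mean deviations of -1.35 and -1.05 against 1.19 and 1.22 in cold replicates 1 and 4. MANES_07G071700 had 66.8, 5.55, 6.54 and 54.4 CPM in cold replicates 1 to 4, against 12.9, 18.1, 92.8 and 22.8 CPM in control replicates 1 to 4. MANES_08G054400 had 159, 11, 15.4 and 115 CPM in cold replicates 1 to 4, against 42.4, 53.8, 183 and 49.9 CPM in control replicates 1 to 4. In both IDs the cold libraries fell into a high pair and a low pair, while a single control library stood above the other 3. The median cold range of the set was 9.52 and its median control range 3.98. Its closest follower outside the 96, MANES_04G037900 (r of 0.993), had a range of 1.49 in cold and 1.28 in control.

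Set 3 held 13 IDs from 9 chromosomes, all highest in cold replicate 4, and 12 of the 13 lowest in cold replicate 3. In control, replicates 3 and 4 were high with mean deviations of 0.89 and 0.79, and replicate 1 was lowest for 10 IDs. The 2 IDs closest to the rest of the set were next to each other on chromosome 7. MANES_07G092900 had 10.6, 5.29, 3.52 and 32.2 CPM in cold replicates 1 to 4, against 3.05, 6.77, 20.8 and 16.9 CPM in control replicates 1 to 4. MANES_07G092800 had 9.49, 3.92, 3.63 and 32.0 CPM in cold replicates 1 to 4, against 2.79, 6.40, 21.0 and 15.9 CPM in control replicates 1 to 4. Outside the 96, MANES_02G112800 came closest (r of 0.975) and was as wide, with 101, 70.2, 27.1 and 214 CPM in cold replicates 1 to 4, against 20.4, 32.9, 106 and 105.4 CPM in control replicates 1 to 4. It missed the selection only because its cold mean was 1.56 times its control mean.

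The other 5 sets, whose examples were added after the values had been seen, differed in profile, but some sets were alike. Over the 8 libraries, mean profiles had r of 0.75 for sets 2 and 3 and 0.75 for sets 6 and 7. The value was 0.68 for sets 3 and 5 and 0.66 for sets 4 and 8. Set 4 (9 IDs) was highest in cold replicate 1 and control replicate 3 in all 9. Its example MANES_13G112500 had 33.9, 9.29, 14.6 and 11.7 CPM in cold replicates 1 to 4, against 9.67, 6.39, 32.1 and 10.6 CPM in control replicates 1 to 4. It differed from set 2 in cold replicate 4, which was low (-0.88) in set 4 and high (1.22) in set 2. The mean profiles of both sets had r of 0.54 over the 8 libraries.

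Set 5 (8 IDs, 3 of them on chromosome 8) was marked by control replicate 1, which was lowest in all 8 with a mean deviation of -2.64, while control replicates 2 to 4 lay between 0.64 and 1.30. Cold replicate 4 was highest for 7 of the 8. MANES_02G090300 had 21.4, 14.2, 12.7 and 43.2 CPM in cold replicates 1 to 4, against 1.44, 64.8, 32.6 and 36.1 CPM in control replicates 1 to 4. The median control range of the set was 20.3 and its median cold range 4.43. Control replicate 1 is one of the libraries with the large share in abundant IDs, and the part of this in the low values was not tested.

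Sets 6 and 7, with 6 IDs each, ran against most others: control replicate 1 was highest in all 12. In set 6, cold replicates 1 and 3 were high (0.86 and 0.67) and cold replicates 2 and 4 low (-0.79 and -0.73), so that the high libraries were the 3 with the large share in abundant IDs. MANES_12G145500 of set 6 had 26.6, 8.85, 26.4 and 8.81 CPM in cold replicates 1 to 4, against 30.2, 18.6, 9.95 and 10.5 CPM in control replicates 1 to 4. In set 7, which holds the 2 most abundant variable IDs, only cold replicate 3 was high (1.16) and cold replicate 4 was lowest in all 6. MANES_14G032200 of set 7 had 22.7, 26.1, 55.3 and 14.6 CPM in cold replicates 1 to 4, against 38.8, 16.1, 11.4 and 20.7 CPM in control replicates 1 to 4. The mean profile of set 7 had r of -0.86 with set 3 and -0.81 with set 5 over the 8 libraries. Outside the 96, 83 IDs mirrored set 6 with r of -0.95 or lower and 32 followed it.

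Set 8 (6 IDs) was highest in cold replicate 1 and control replicate 4 in all 6 and includes the widest ID of all, MANES_05G139400. Its example MANES_17G114000 had 55.8, 12.9, 7.93 and 9.96 CPM in cold replicates 1 to 4, against 7.10, 10.4, 31.1 and 46.4 CPM in control replicates 1 to 4. Cold replicate 1 stood clear of the other cold libraries, while in control the levels spread over a high and a low pair.

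**Figure D4:**
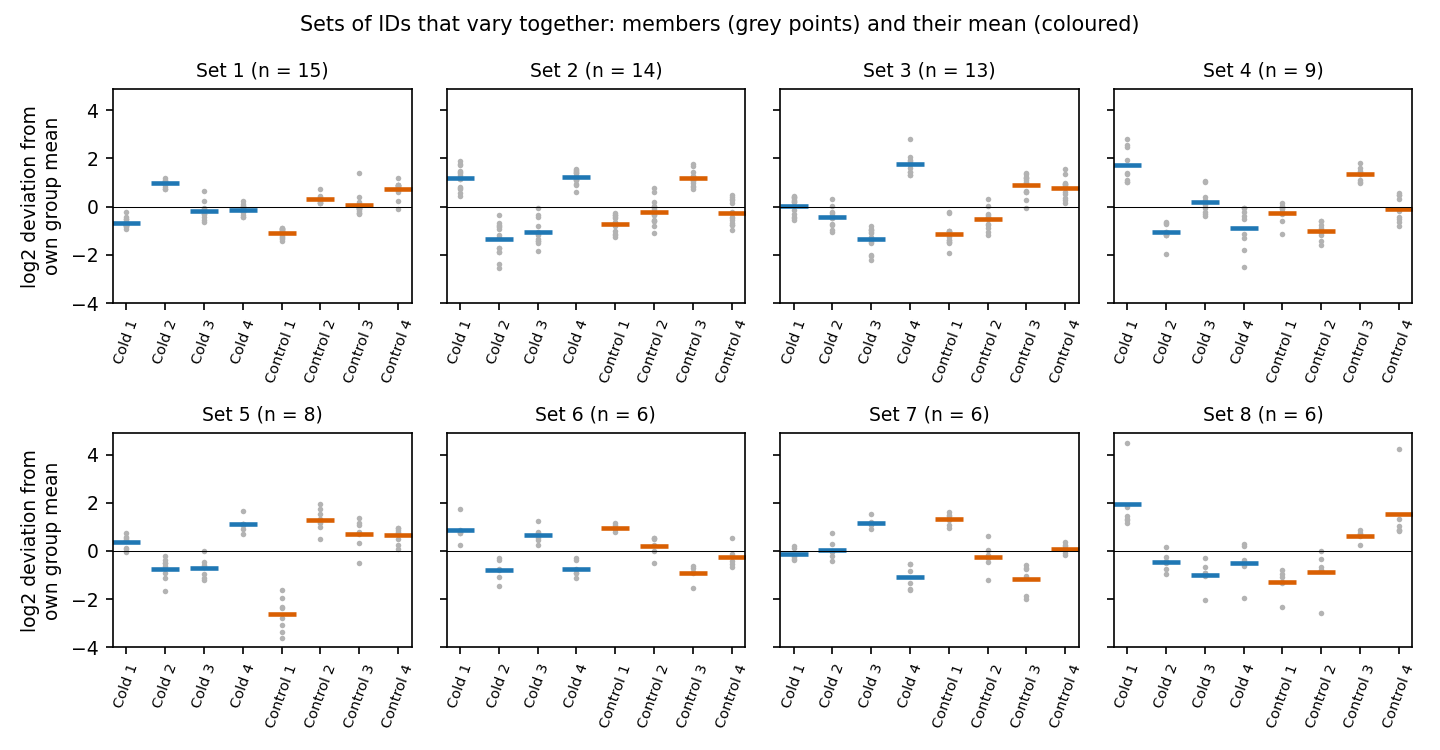
Deviation of log2(CPM + 0.5) from the own-group mean in each of 4 cold (blue) and 4 control (orange) libraries, 1 panel per set, with member IDs as grey points and the set mean as a bar. Control replicate 1 is far below the others in set 5 and above them in sets 6 and 7, and the 2 grey points above 4 in set 8 are MANES_05G139400.

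The 19 IDs outside these sets, described after their values had been seen, included a set of 4, 3 sets of 3, 2 pairs and 2 single IDs. In the set of 4, cold replicate 1 was the lowest cold library, opposite to set 8. Its most abundant member, MANES_01G219300, had 106, 327, 368 and 388 CPM in cold replicates 1 to 4, against 338, 106, 261 and 205 CPM in control replicates 1 to 4. One set of 3 was high in cold replicate 1 and low in control replicate 3, as shown by MANES_10G148800 with 146.5, 39.7, 23.0 and 22.9 CPM in cold replicates 1 to 4, against 120.1, 88.4, 27.4 and 73.9 CPM in control replicates 1 to 4. Another joined MANES_13G094200 with MANES_12G133500, which had 287, 90.3, 202 and 101 CPM in cold replicates 1 to 4, against 27.3, 300.2, 65.3 and 197 CPM in control replicates 1 to 4. MANES_17G043500, in a pair, had 25.3, 11.6, 6.61 and 13.7 CPM in cold replicates 1 to 4, against 5.95, 3.34, 65.1 and 9.76 CPM in control replicates 1 to 4. Its control range came from replicate 3 alone. The single IDs were MANES_18G019900 and MANES_11G090800, which had cold ranges of 3.05 and 3.08.

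Variable IDs that lie next to each other moved together. The 96 IDs came from all 18 chromosomes. Chromosome 8 held 11 of them (11.5%, against 5.84% of the steady IDs), and chromosomes 7 and 14 held 9 each (9.38%, against 3.74% and 5.56%). Chromosome 4 held 1, against 5.17% of the steady IDs. In table order, 6 pairs of the 96 were direct neighbours. Counting only pairs of successive variable IDs, 9 pairs lay within 5 places, and in all 9 both IDs fell into the same set. Pairs of IDs that do not follow each other within the run of 4 on chromosome 7 were thus left out. The 9 pairs had a median r of 0.96 (lowest 0.78), and all 4560 pairs a median of 0.11. The sources used here do not say how reads shared by neighbouring or near-identical genes were counted, so values of neighbours may not be separate measurements.

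The longest run was of 4 IDs on chromosome 7, from MANES_07G092600 to MANES_07G092900, all in set 3. MANES_07G092600 had 25.3, 11.9, 10.4 and 57.2 CPM in cold replicates 1 to 4, against 8.74, 17.3, 54.6 and 36.1 CPM in control replicates 1 to 4. MANES_07G092700 had 14.1, 5.06, 5.06 and 39.1 CPM in cold replicates 1 to 4, against 2.77, 4.82, 22.7 and 16.5 CPM in control replicates 1 to 4. With the 2 IDs given under set 3, all 4 had the same highest library in each group, and successive IDs of the run had r of 0.992 to 0.995. The next IDs on either side did not share the pattern. MANES_07G092500 had a cold range of 1.51 and a control range of 1.55, and MANES_07G093000 ranges of 1.12 and 1.08, with r of 0.05 and 0.16 to the mean of the run.

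**Figure D5:**
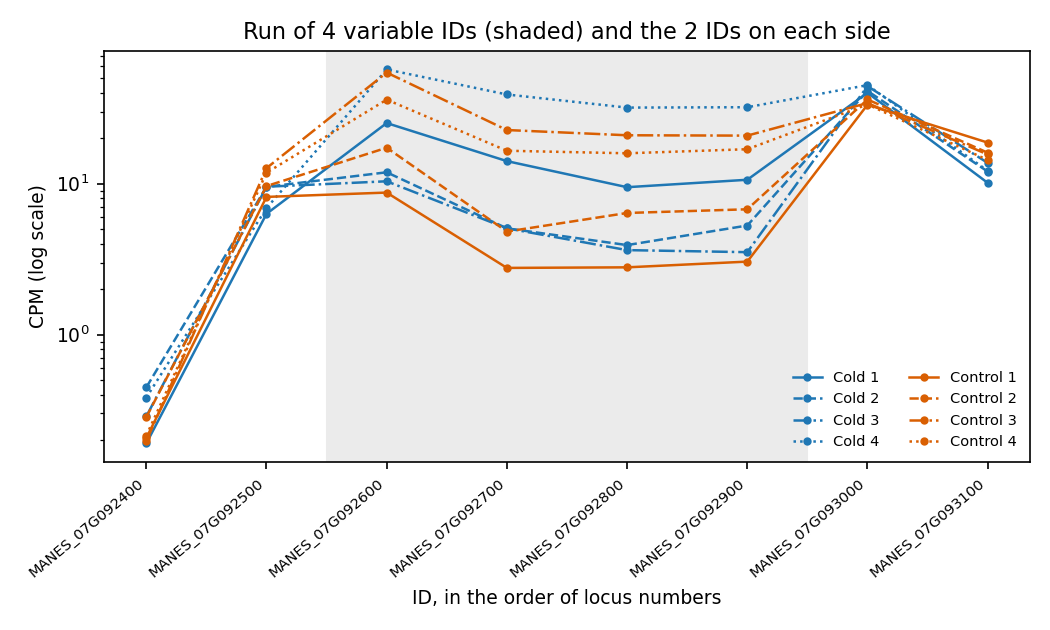
CPM (log scale) in each library (blue cold, orange control, line style by replicate) for the run of 4 variable IDs on chromosome 7 (shaded) and the 2 IDs on each side, in order of locus number. Lines fan out within the shaded block, with cold replicate 4 highest in all 4 IDs, and close up at MANES_07G092500 and MANES_07G093000.

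Runs of 2 lay on chromosomes 7, 8 and 17. MANES_07G050300 had 252, 10.6, 32.8 and 36.7 CPM in cold replicates 1 to 4, against 69.3, 52.3, 220.2 and 51.5 CPM in control replicates 1 to 4. Its neighbour MANES_07G050400 had 59.4, 3.37, 6.47 and 3.01 CPM in cold replicates 1 to 4, against 16.2, 11.5, 50.1 and 9.81 CPM in control replicates 1 to 4. Cold replicate 1 and control replicate 3 were far above the rest in both, the pattern of set 4. On chromosome 8, MANES_08G058700 had 21.3, 16.7, 9.11 and 70.7 CPM in cold replicates 1 to 4, against 1.47, 59.3, 60.6 and 45.3 CPM in control replicates 1 to 4. Next to it, MANES_08G058800 had 13.4, 8.18, 4.19 and 18.6 CPM in cold replicates 1 to 4, against 2.86, 23.4, 12.6 and 10.6 CPM in control replicates 1 to 4. Both dropped in control replicate 1, as did the rest of set 5. On chromosome 17, MANES_17G113900, the neighbour of MANES_17G114000, had 65.9, 21.7, 23.5 and 20.8 CPM in cold replicates 1 to 4, against 9.76, 20.0, 39.2 and 53.1 CPM in control replicates 1 to 4. The pair had r of 0.958 over the 8 libraries.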

How the data were processed

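The authors deposited 1 table of raw counts, in whole numbers, with a row for each gene ID and a column for each of 8 libraries, not scaled for depth or length. Per the submitters' processing notes, STAR 2.7.10a, SAMtools 1.6 and bedtools 2.30 were used, with no role given. Not given in the sources used here are the counter, strand setting, genome build and annotation. The gene table used for names (assembly M.esculenta_v8, 34312 rows) matched 0 IDs, so gene lists set for this work could not be applied and no sequence is shown.

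CPM was computed from column sums. Deviations are log2(CPM + 0.5) minus the mean of the own group. Cold and control were compared in R 4.3.3 with edgeR 4.0.16 (filterByExpr, TMM factors of 0.947 to 1.04, robust quasi-likelihood F test, Benjamini-Hochberg adjustment over 26517 IDs, threshold 0.05, no replicate block), tested on simulated data. As the labels do not tie replicates to separate plants, p-values cover the spread among these libraries only, which may be technical. DESeq2 1.42.0, other factors, filters and thresholds and each library left out in turn were alternatives. All else was computed with Python 3.11.15 (scipy 1.17.1, numpy 2.4.6, pandas 2.3.3) and drawn with matplotlib 3.10.9.

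IDs named are the 2 widest and the 2 most abundant, the 2 closest to each of the 3 largest sets with the closest ID outside, those at the borders, and runs of neighbours. Others are marked as added after their values were seen. The IDs and rules were chosen with earlier results of these data known.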

Additional observations from a re-analysis of the deposited data

Results flagged for a closer look

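Sets of 4 values were taken for named IDs, library totals, shares and set means, each within cold or control. In 15 of the 82 sets, 1 library lay far from the other 3. For IDs the gap was taken on CPM and not on the log2 scale, which favours single high libraries. Most of these IDs were chosen for a wide spread, which by itself makes such gaps more frequent, and some are neighbours that moved together. The 15 are therefore given as description, with no chance rate beside them.

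Cold replicate 1 stood high in 5 of the 15. MANES_05G139400 had 55.7 CPM there, against 0.111 to 1.29 CPM in the other cold libraries. MANES_17G113900 had 65.9 CPM against 20.8 to 23.5, and MANES_17G114000 55.8 CPM against 7.93 to 12.9. MANES_07G050300 had 252 CPM against 10.6 to 36.7, and MANES_07G050400 59.4 CPM against 3.01 to 6.47.

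Control replicate 3 stood high in 6. MANES_07G071700 had 92.8 CPM there, against 12.9 to 22.8 in the other control libraries, and MANES_08G054400 183 CPM against 42.4 to 53.8. MANES_07G050300 had 220.2 CPM against 51.5 to 69.3, and MANES_07G050400 50.1 CPM against 9.81 to 16.2. MANES_13G112500 had 32.1 CPM against 6.39 to 10.6, and MANES_16G129000, just outside the selection, 21.9 CPM against 7.35 to 8.14.

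In the other 4, MANES_05G139400 had 58.8 CPM in control replicate 4 against 0.0218 to 4.59 in the other control libraries, and MANES_03G110500 had 1402 CPM in cold replicate 3 against 415 to 509. MANES_02G082000 had 47.1 CPM in cold replicate 4 against 0.940 to 5.14 in the other cold libraries. The mean deviation of set 5 in control replicate 1 was -2.64, against 0.64 to 1.30 in the other control libraries.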

How the results depend on the processing

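The number of variable IDs was 96, and it was 157 at a minimum mean of 5 CPM, 51 at 20 CPM, 207 for a range of at least 2.5 and 39 for at least 4, since these settings loosen or tighten the selection. With TMM factors it was 89, of which 81 were among the 96. Leaving out 1 library gave 43 (without cold replicate 1) to 85 IDs, with 53 without control replicate 1 and 58 without control replicate 3, and 13 IDs, of which 12 were among the 96, without control replicate 1 and cold replicates 1 and 3, a setting added after seeing the data. Ranges over fewer libraries can only stay or shrink, but the group means change too, so IDs outside the 96 can enter. Of the 43 IDs without cold replicate 1, 42 were among the 96. It was 66 of the 83 without cold replicate 2 and 47 of the 58 without control replicate 3. The share of IDs wide in control that were wide in cold was 30.8% for a range of at least 2.5 and 17.8% without these 3 libraries, and it ran from 12.3% to 54.1% when 1 library was left out. With Spearman's rho, 22.1% of pairs picked on control reached 0.9 in cold and 23.3% the other way. Leaving out 1 library gave 17.2% to 40.5% and 20.6% to 47.5%. Sets of at least 5 IDs numbered 7 with the tree parted at 0.2 or at 0.4, and 5 to 9 without 1 library, with 5 without cold replicate 1.

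The fit of cold against control called 2425 IDs, with 1388 without the 3 libraries, 4667 in DESeq2 and 1066 (without control replicate 2) to 2356 when 1 library was left out. It called 0 of the 96 in each of these fits. With the replicate block, 1281 IDs and 0 of the 96 were called. Same-numbered libraries had correlations of deviations of 0.06, 0.08, -0.33 and -0.07 over expressed IDs for replicates 1 to 4, and 0 of the 4 cold libraries were closest to their own number, so the numbers were not taken as pairs. Causes of these shifts were not tested where the setting itself does not show them. Depth limits the near-0 values: 3 counts are 0.0478 CPM in cold replicate 3.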
